A study of Mus musculus with 6 samples.

Results

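The non-clustered delta protocadherins described here are 9 genes, Pcdh1, Pcdh7, Pcdh8, Pcdh9, Pcdh10, Pcdh17, Pcdh18, Pcdh19 and Pcdh20, and their members on the array were all 23 probes that the platform annotation assigns to these genes, out of 45281 probes that name 19057 genes in all. The genes were singled out because Pcdh9 and Pcdh20 stood among the largest differences between the genotypes in an earlier reading of these data, so their differences are given as a description, without a test. Cerebellar RNA was taken from male mice on postnatal day 21, of mixed strain (Black Swiss X CD1), with 3 Sp4 hypomorphs (genotype Sp4neo-/-) and 3 wild-type mice (WT). The design describes the animals as littermate pairs, and each sample carries a number from 1 to 3 within its genotype. Sp4 is a zinc-finger transcription factor that binds GC-rich promoter elements, and a hypomorphic allele is one that works less well than the normal one. The labels give the allele but not the cells in which it acts or how much Sp4 remains. Each animal was read on 1 Illumina bead array, so that the precision of every value rests on 3 arrays per genotype.

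Protocadherins are cell surface proteins of the cadherin superfamily, with calcium-binding cadherin repeats outside the cell, a single membrane span and a cytoplasmic tail that differs between subfamilies. The clustered protocadherins are encoded in tandem arrays, while the delta protocadherins lie as separate genes and are grouped by their tails into delta-1 (here Pcdh1, Pcdh7 and Pcdh9) and delta-2 (here Pcdh8, Pcdh10, Pcdh17, Pcdh18 and Pcdh19), with Pcdh20 placed outside both. They are known for weak adhesion between like cells, for sorting and extending axons and for shaping synapses, and several delta-2 tails bind the WAVE complex, which drives actin branching. In the nervous system each is expressed in its own combination of regions and neuron types.

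The promoter windows of 4 members are shown so that the 2 genes with the largest differences, Pcdh9 and Pcdh20, can be set beside 2 with small ones, Pcdh17 and Pcdh10. The choice rests on the differences, and a link between motifs and differences was not tested. Sequences are from RefSeq (assembly GRCm38.p6), 300 bases around an annotated start, 5′ to 3′ on the strand of the gene. For Pcdh9 this start lies inside the gene, whose outer 5′ end is at 93892834, so the window does not cover that end. Capitals mark GGGCGG, the core of the GC box bound by Sp factors, or GGGTGG, each searched on both strands (CCGCCC and CCACCC on the opposite strand). The windows lie at chr14:93890630-93890929 (minus strand) for Pcdh9, chr14:88471347-88471646 (minus strand) for Pcdh20, chr14:84443313-84443612 (plus strand) for Pcdh17 and chr3:45378148-45378447 (plus strand) for Pcdh10.
Pcdh9: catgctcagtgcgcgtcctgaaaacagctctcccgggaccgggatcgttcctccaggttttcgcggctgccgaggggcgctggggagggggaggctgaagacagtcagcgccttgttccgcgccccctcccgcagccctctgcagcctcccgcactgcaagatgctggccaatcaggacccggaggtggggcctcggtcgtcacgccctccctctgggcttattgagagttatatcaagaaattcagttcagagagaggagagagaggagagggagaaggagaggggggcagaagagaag
Pcdh20: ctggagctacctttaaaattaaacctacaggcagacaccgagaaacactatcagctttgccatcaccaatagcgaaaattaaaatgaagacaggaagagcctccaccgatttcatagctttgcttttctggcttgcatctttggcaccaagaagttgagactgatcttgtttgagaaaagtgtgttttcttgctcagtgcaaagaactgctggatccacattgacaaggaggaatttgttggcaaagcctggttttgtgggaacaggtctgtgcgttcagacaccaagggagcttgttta
Pcdh17: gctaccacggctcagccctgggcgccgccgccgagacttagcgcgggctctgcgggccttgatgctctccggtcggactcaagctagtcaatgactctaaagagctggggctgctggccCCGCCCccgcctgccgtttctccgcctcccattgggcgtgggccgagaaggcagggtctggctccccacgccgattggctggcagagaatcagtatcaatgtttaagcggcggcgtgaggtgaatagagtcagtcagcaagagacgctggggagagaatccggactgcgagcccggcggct
Pcdh10: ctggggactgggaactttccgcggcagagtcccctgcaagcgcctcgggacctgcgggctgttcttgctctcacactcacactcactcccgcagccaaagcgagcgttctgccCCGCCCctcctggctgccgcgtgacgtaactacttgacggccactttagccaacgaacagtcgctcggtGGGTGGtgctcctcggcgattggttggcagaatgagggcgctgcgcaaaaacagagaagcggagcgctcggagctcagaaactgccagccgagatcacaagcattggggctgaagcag

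The table held windows for 8 of the 9 genes. A GGGCGG match was present in the windows of 4 of them, Pcdh10, Pcdh17, Pcdh18 and Pcdh19, with 1 match each, and 35.7% of all 32851 promoter windows held at least 1. GGGTGG was found in 31.5% of all windows, and among the members it was found in those of Pcdh8 and Pcdh10 (1 match each), Pcdh19 (2 matches) and Pcdh18 (3 matches). The windows of Pcdh7, Pcdh9 and Pcdh20 held neither motif. Those of Pcdh7 (chr5:57717831-57718130, with the gene starting at 57716145) and Pcdh9 lie inside the gene and miss its outer 5′ end. The windows of the other genes cover that end, so the windows are not all alike in place. The Pcdh20 window was 43.7% G or C, against a median of 52.7% over all windows, while that of Pcdh9 was 62.7%. The CG dinucleotide occurred 4 times in the Pcdh20 window, against a median of 7 over all windows. It occurred 18 times in the Pcdh9 window, 26 in that of Pcdh17 and 24 in that of Pcdh10. A match is a run of letters and not a bound site, and a window without a match says nothing about sequence outside it.

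Between 18656 and 20135 probes per array had a detection p under 0.05, which is called above background here. The 19515 probes that were above background on at least 3 of the 6 arrays entered the comparison. Both Sp4 probes read lower in the hypomorphs. Probe ILMN_1259753 read 5.99, 5.80 and 6.32 in hypomorphs 1 to 3, against 7.82, 6.86 and 7.35 in wild types 1 to 3 (normalized log2 intensity, as for all levels below). Probe ILMN_1253376 failed to rise above background in any of the hypomorphs, where it was lower by a factor of at least 1.5. That factor sets the wild-type mean against the lowest signal above background, or the probe's own signal where that was higher, on each hypomorph array. Where these probes lie relative to the altered part of the gene was not analysed here. Markers of cerebellar neurons were bright in both genotypes: Pcp2 of Purkinje cells averaged 14.93 ± 0.05 in the hypomorph and 14.85 ± 0.08 in wild type, and Cbln1 of granule cells 15.10 ± 0.16 and 15.11 ± 0.24 in the same order (SD, n = 3 each). Gabra6, also of granule cells, averaged 9.64 ± 0.21 in the hypomorph and 9.74 ± 0.2 in wild type.

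Of the 23 delta protocadherin probes, 15 entered the comparison, from 7 of the 9 genes, and 12 were above background on all 6 arrays. Pcdh8 and Pcdh18 had no probe above background on any array. Pcdh8, also called arcadlin, is known from rodent hippocampal neurons as an activity-induced protein that removes N-cadherin from synapses, and Pcdh18 is known in mice as a partner of the adaptor Dab1. Of the 4 Pcdh7 probes, ILMN_2881857 was above background on all 6 arrays, ILMN_1256531 only in hypomorph 2 and wild type 3, and the others on none. Pcdh19 was read by ILMN_2696829 alone, since its second probe stayed in the background throughout. The 8 probes left out had normalized values between 4.64 and 5.77. A probe that is not above background gives only an upper limit for its transcript, so that low amounts of Pcdh8 or Pcdh18 RNA would not have been seen. In whole cerebellum, fewer cells of a type and less RNA per cell cannot be told apart.

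**Figure D1:**
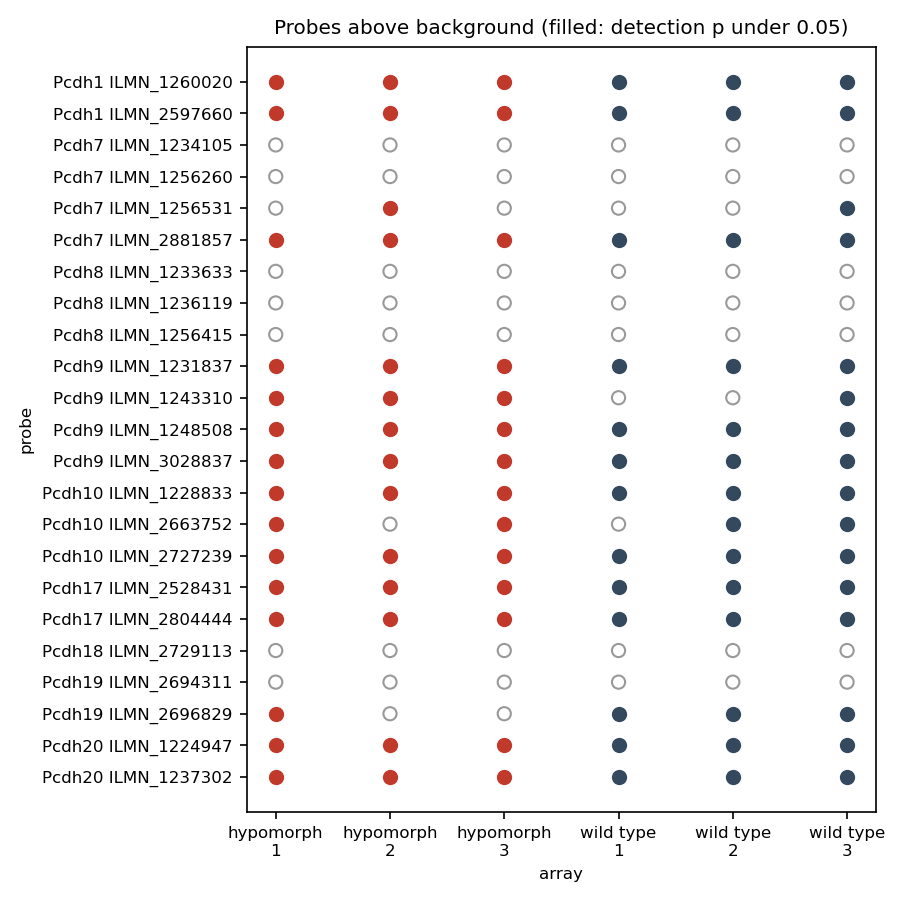
Detection of all 23 probes (rows) on the 6 arrays (columns, hypomorph left, wild type right): filled circles have a detection p under 0.05, open circles do not. Pcdh8 and Pcdh18 are open throughout, and Pcdh9 probe ILMN_1243310 is filled on all 3 hypomorph arrays and on wild type 3 only.

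Among the 15 probes, 7 had higher and 8 had lower means in the hypomorph, with a median log2 difference of -0.03, against 50.2% of probes higher and a median of 0.001 over all 19515. Without hypomorph 2 the median was 0.18, with 9 of 15 higher. The groups did not overlap at 4 member probes, all higher in the hypomorph, where 5.5% of all tested probes had hypomorph arrays all above wild type and 5.02% had them all below. A log2 difference of at least 0.5 was found on 5 member probes in the higher direction and on 0 in the lower, where the shares of all tested probes were 2.32% and 2.62%. Pcdh9 probe ILMN_1243310 is in both sets. It met the filter through its 3 hypomorph arrays, with only 1 wild-type array above background, so its separation is partly set by the filter. With limma and p-values adjusted by Benjamini-Hochberg, 0 of 19515 probes (0%), members included, had an adjusted p under 0.05, and 1036 probes, or 5.31%, had an unadjusted p under 0.05. A member was called under 2 of the alternative settings, in each case 1 of 8 calls (0.041% of tested probes). The members were chosen with this comparison known, so nothing is read from these counts about the family. All 5 large values belonged to Pcdh9 and Pcdh20. The 9 probes of the other 5 genes lay between -0.37 and 0.25, with 2 higher, 7 lower and a median of -0.15, and their groups overlapped at each of the 9.

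**Figure D2:**
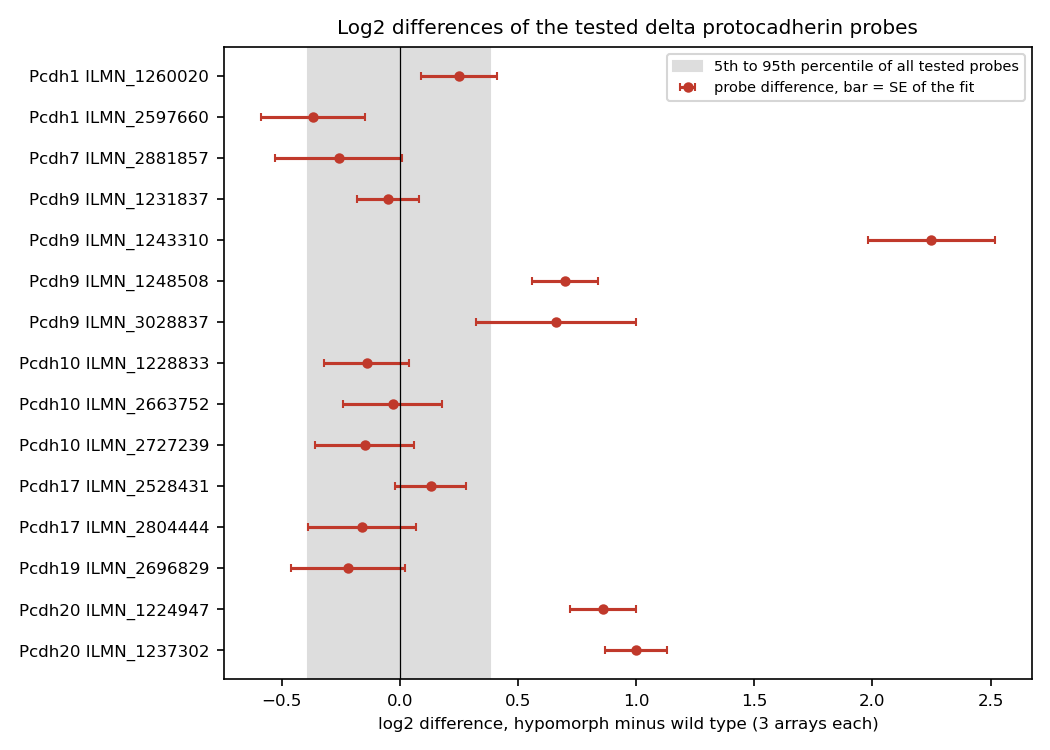
Log2 difference (x axis, hypomorph minus wild type, 3 arrays each) of each of the 15 probes that entered the comparison (rows), with the SE of the fit as bars; the grey band spans the central range of all tested probes, -0.39 to 0.38, with the lowest and highest 5 percent left out. The 2 Pcdh20 probes and 3 of the 4 Pcdh9 probes lie to the right of the band, and the other probes lie within it.

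Pcdh20, known in mice from axons of the olfactory system, gave the most even picture. Probe ILMN_1237302 read 10.15, 10.13 and 9.90 in hypomorphs 1 to 3, against 9.01, 9.09 and 9.05 in wild types 1 to 3. Every hypomorph array lay above every wild-type array, with a gap of 0.81 between the lowest hypomorph and the highest wild type. Probe ILMN_1224947 read 7.25, 6.91 and 7.14 in hypomorphs 1 to 3, against 6.25, 6.26 and 6.22 in wild types 1 to 3. These groups were separated too, by 0.65, and the wild-type arrays were close to each other on both probes (SD 0.04 and 0.02). The log2 difference was 1.00 (SE 0.13, or 2.01-fold) on ILMN_1237302 and 0.86 (SE 0.14, or 1.81-fold) on ILMN_1224947. Before normalization the brighter probe had intensities of 1103.9, 1019.7 and 941.6 in the hypomorphs, against 489.3, 605.4 and 513.1 in wild type. In the authors' deposited table of processed values it had 1259.1, 1245.3 and 1081.1 in the hypomorphs, against 642.0, 672.6 and 658.2 in wild type, a log2 difference of 0.86. The dimmer probe differed by 0.38 in that table. The promoter window of this gene, shown above, held neither motif. Neither did that of Pcdh7, a gene whose window misses its outer 5′ end and whose tested probe differed by -0.26 (SE 0.27).

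Pcdh9, a delta-1 protocadherin of neuronal processes that is expressed widely in the brain, was read by 4 probes that gave different answers. The brightest, ILMN_1231837, read 12.09, 11.93 and 12.22 in hypomorphs 1 to 3, against 12.08, 12.12 and 12.17 in wild types 1 to 3. The groups overlapped fully, with wild type inside the range of the hypomorphs and a log2 difference of -0.05 (SE 0.13), whose sign turned to 0.03 without hypomorph 2. Its unnormalized intensities, 3647.3 to 4756.9 in the hypomorphs and 4370.8 to 4690.3 in wild type, overlapped likewise.

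Probe ILMN_1243310 of the same gene read 8.22, 7.90 and 7.22 in hypomorphs 1 to 3, against 5.36, 5.43 and 5.78 in wild types 1 to 3. Every hypomorph array lay above every wild-type array. The probe was above background on all 3 hypomorph arrays but on only 1 of 3 wild-type arrays, wild type 3, so the wild-type mean lies mostly at the background and the log2 difference of 2.25 (SE 0.27) against it is not a measured fold. Its intensities before normalization were 270.7, 213.9 and 131.1 in the hypomorphs, against 19.8, 25.7 and 38.0 in wild type. The size of the difference depended on the processing: it was 1.04 in the authors' deposited table, where the probe had 424.2, 365.4 and 275.5 in the hypomorphs, against 163.0, 166.0 and 180.6 in wild type.

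The remaining Pcdh9 probes lay in between. ILMN_1248508 read 8.58, 8.42 and 8.73 in hypomorphs 1 to 3, against 7.78, 7.86 and 8.0 in wild types 1 to 3, a log2 difference of 0.70 (SE 0.14, or 1.62-fold). These groups did not overlap, with a gap of 0.42. ILMN_3028837 read 6.82, 8.13 and 7.09 in hypomorphs 1 to 3, against 7.0, 6.44 and 6.63 in wild types 1 to 3, a log2 difference of 0.66 (SE 0.34). Here the groups overlapped and hypomorph 2 stood far above the rest: without it the difference was 0.27, and without hypomorph 1 it was 0.92. Of the 4 probes of this gene, ILMN_1248508 was thus the only one above background on all arrays whose groups did not overlap. The annotation assigns all 4 to the same transcript record, and where along the gene each probe lies was not analysed here.

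**Figure D3:**
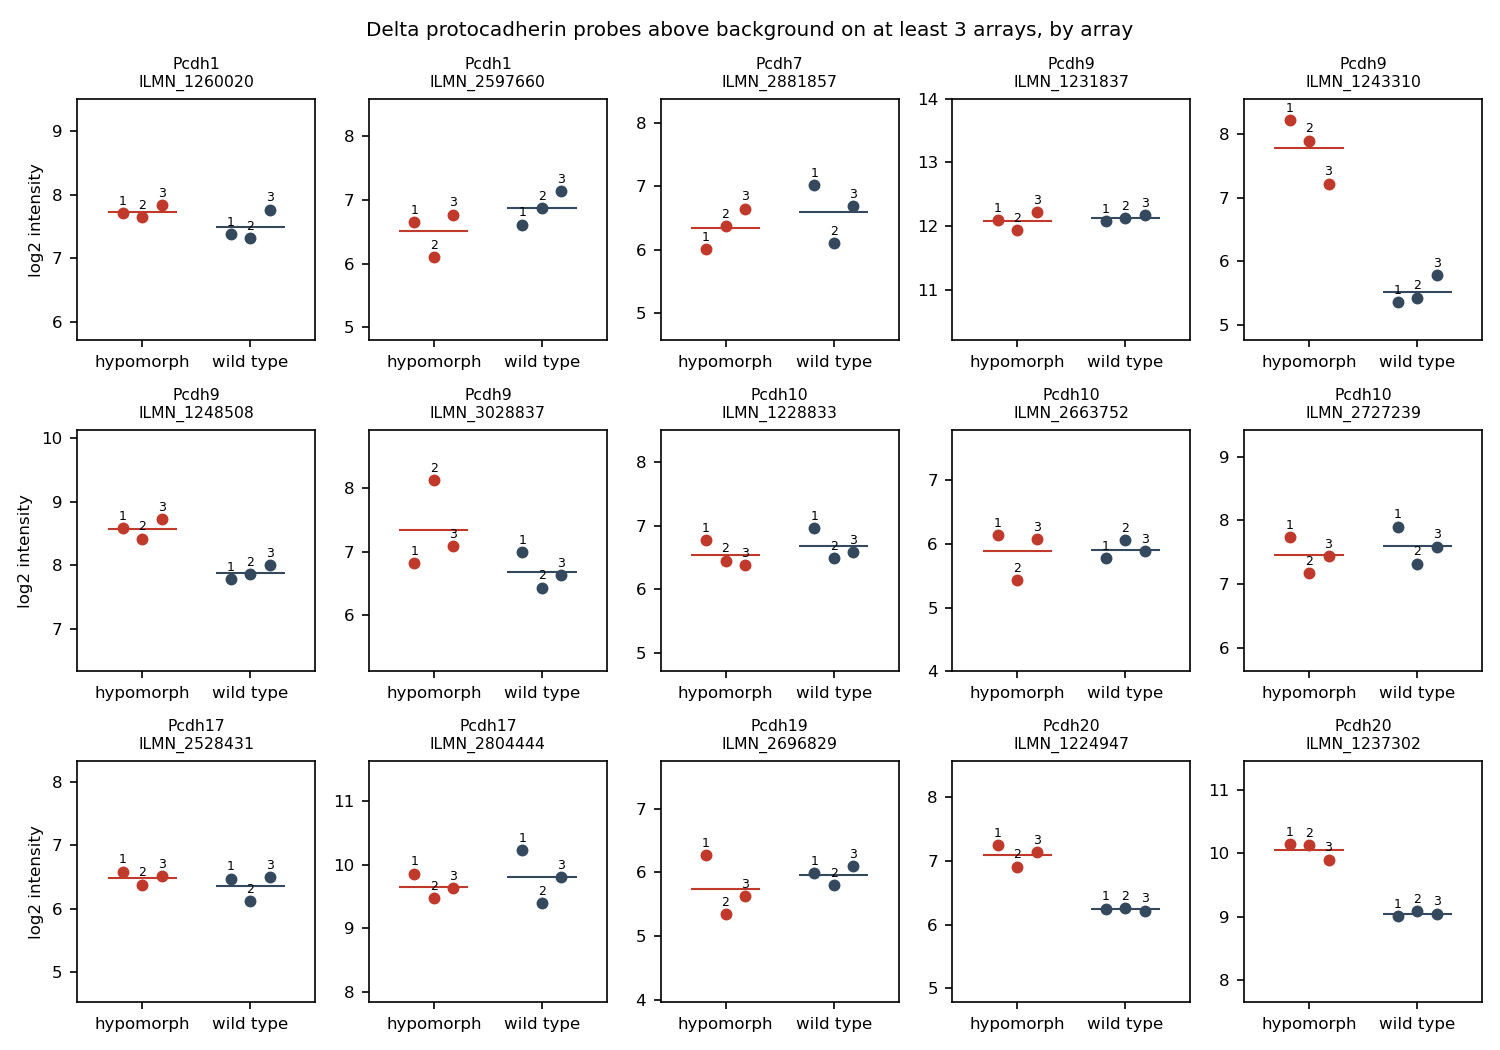
Normalized log2 intensity (y axis, spanning the same number of units in every panel) of each of the 15 probes on the 3 hypomorph (left) and 3 wild-type (right) arrays; digits are the sample numbers and lines the group means. The groups are apart in both Pcdh20 panels and in the Pcdh9 panels of ILMN_1243310 and ILMN_1248508, and overlap in all others.

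The difference of each Pcdh9 and Pcdh20 probe was recomputed under 9 other processings (8 for ILMN_1243310, which the stricter filter removed) and with each array left out. The Pcdh20 probe ILMN_1237302 stayed between 0.86 and 1.08 and ILMN_1224947 between 0.38 and 0.96. The Pcdh9 probe ILMN_1243310 ran from 1.04 to 2.54 and ILMN_1248508 from 0.49 to 0.79. The lowest value of each of these 4 probes came from the authors' processed values, which sit on a raised floor. None of the 4 changed sign. The replicate block, both filter settings and the trended moderation leave a log2 difference as it is by construction, so they add nothing to this. The groups of these 4 probes did not overlap, so leaving out an array could hardly have turned the sign. Among the overlapping Pcdh9 probes, ILMN_3028837 ran from 0.27 to 0.92, and ILMN_1231837 ran from -0.11 to 0.03 and changed sign.

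**Figure D4:**
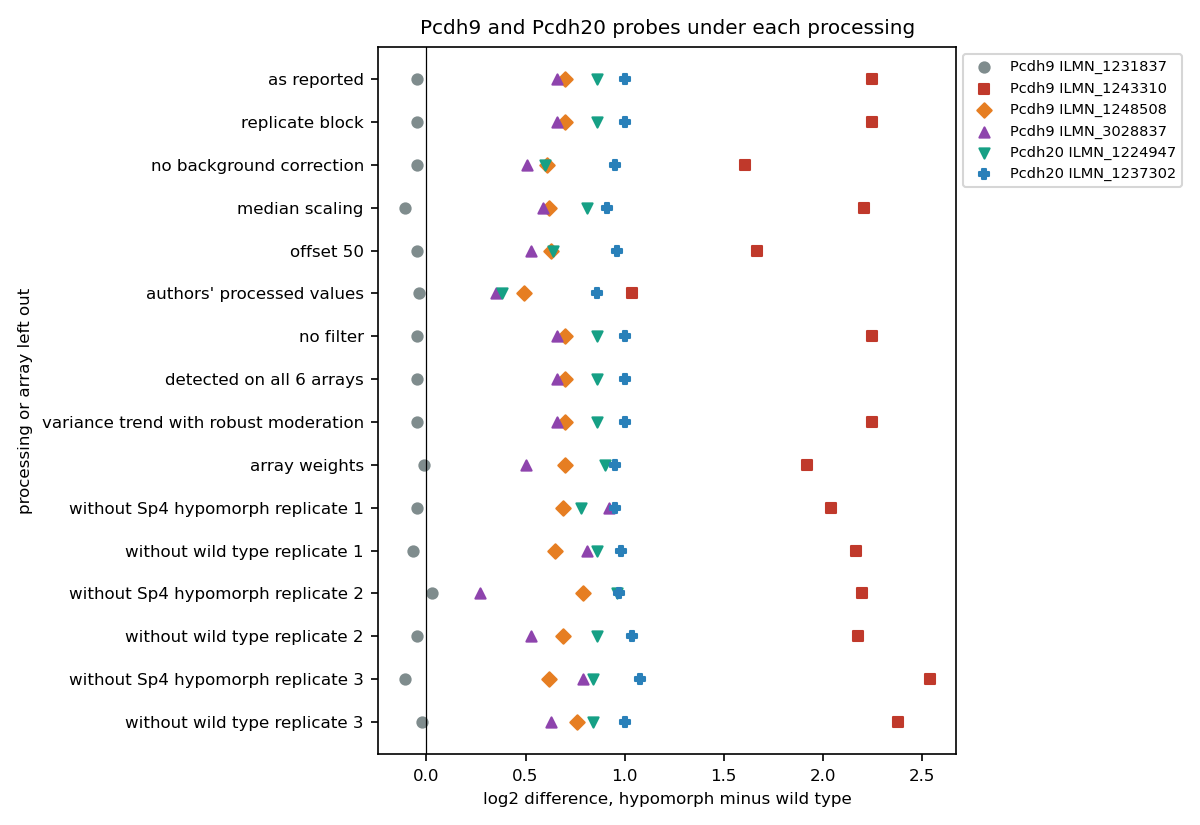
Log2 difference (x axis, hypomorph minus wild type) of the 4 Pcdh9 and 2 Pcdh20 probes under the reported processing, each alternative and each array left out (rows). The symbols of ILMN_1243310 stay furthest right, from 1.04 to 2.54, and those of ILMN_1231837 stay within 0.11 of 0.

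Among the other delta-1 members, Pcdh1 is known from epithelia as well as brain, and Pcdh7 is known in human cells to bind the protein SET. The Pcdh1 probes differed in sign. ILMN_1260020 read 7.71, 7.64 and 7.83 in hypomorphs 1 to 3, against 7.38, 7.31 and 7.76 in wild types 1 to 3, a log2 difference of 0.25 (SE 0.16). ILMN_2597660 read 6.65, 6.10 and 6.77 in hypomorphs 1 to 3, against 6.61, 6.87 and 7.14 in wild types 1 to 3, a log2 difference of -0.37 (SE 0.22). The groups overlapped on both, and single arrays moved both values: ILMN_1260020 was at 0.16 when wild type 2 was dropped and at 0.39 when wild type 3 was, and ILMN_2597660 at -0.17 without hypomorph 2 and -0.23 without wild type 3. The Pcdh7 probe ILMN_2881857 read 6.01, 6.37 and 6.65 in hypomorphs 1 to 3, against 7.02, 6.10 and 6.69 in wild types 1 to 3. Its wild-type arrays spread more widely than its hypomorph arrays (SD 0.47 against 0.32), the groups overlapped, and the log2 difference of -0.26 (SE 0.27) became -0.51 when wild type 2 was left out and -0.06 when wild type 1 was.

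The delta-2 members showed differences within their spread. Pcdh10, known in mice from the growth of striatal and thalamocortical axons and as a partner of the WAVE complex, had 3 probes with log2 differences of -0.15 (SE 0.21), -0.14 (SE 0.18) and -0.03 (SE 0.21). Its brightest probe, ILMN_2727239, read 7.74, 7.17 and 7.44 in hypomorphs 1 to 3, against 7.90, 7.32 and 7.59 in wild types 1 to 3. Each hypomorph lay slightly below the wild type of the same number, while the samples numbered 1 were the highest and those numbered 2 the lowest in both genotypes. Probe ILMN_1228833 had its highest readings in the same samples, 6.77 in hypomorph 1 and 6.96 in wild type 1, with the other arrays between 6.38 and 6.58. With an array left out, the difference ran from -0.30 to -0.01 on ILMN_2727239 and from -0.26 to 0.00 on ILMN_1228833, the first value without hypomorph 1 and the second without wild type 1 (on ILMN_2727239 also without hypomorph 2). The dimmest probe, ILMN_2663752, was above background on 2 hypomorph and 2 wild-type arrays, and its sign turned to 0.20 without hypomorph 2, to 0.05 without wild type 2 and to 0.11 with array weights.

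Pcdh17, known in mice from synapse assembly in corticobasal circuits and from axon bundling in the amygdala, had probes of opposite sign. ILMN_2804444 read 9.86, 9.48 and 9.63 in hypomorphs 1 to 3, against 10.23, 9.40 and 9.81 in wild types 1 to 3, a log2 difference of -0.16 (SE 0.23) that turned to 0.05 without wild type 1 and stood at -0.37 without wild type 2. As with Pcdh10, the samples numbered 1 were the highest and those numbered 2 the lowest in both genotypes. ILMN_2528431 read 6.58, 6.38 and 6.51 in hypomorphs 1 to 3, against 6.47, 6.12 and 6.50 in wild types 1 to 3, a log2 difference of 0.13 (SE 0.15) that was 0.00 without wild type 2. The groups overlapped on both probes. Pcdh19, the X-linked member whose human gene underlies an epilepsy that mainly affects females, was read by ILMN_2696829 at 6.27, 5.34 and 5.63 in hypomorphs 1 to 3, against 5.99, 5.80 and 6.10 in wild types 1 to 3. It was above background on 1 of 3 hypomorph arrays and on all 3 wild-type arrays, yet the groups overlapped because hypomorph 1 was the highest of the 6, and the log2 difference was -0.22 (SE 0.24). It was -0.49 (SE 0.18) without hypomorph 1 and -0.02 (SE 0.23) without hypomorph 2.

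Position in the genome sets 4 of the members together: Pcdh8, Pcdh17, Pcdh20 and Pcdh9 follow each other along mouse chromosome 14 in this order, with few other genes between them (gene table of assembly GRCm38.p6). The 2 genes with the largest differences are thus neighbours within this stretch, and Pcdh17 and Pcdh8 lie on the far side of Pcdh20. The other genes of the stretch that entered the comparison were Diaph3, a formin that nucleates actin, and Tdrd3, a Tudor domain protein that binds topoisomerase 3 beta, with 5 probes between them. They are named after their values were seen. Diaph3 differed by 0.13 (SE 0.25). Tdrd3, which lies next to Pcdh20 among the measured genes, had 4 probes, and all but the dimmest were lower in the hypomorph. The brightest 2, with wild-type means of 10.36 and 8.96, differed by -0.59 each (SE 0.13 and 0.16) without overlap of the groups. Another differed by -0.44 (SE 0.22). The dimmest was higher by 0.42 (SE 0.18), again without overlap, with means of 5.94 in the hypomorph and 5.52 in wild type. That wild-type mean lies near background, within the range of the probes left out (4.64 to 5.77).

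The genes whose pattern over the 6 arrays was most like those of the leading probes were ranked among 10462 named genes by Pearson's r. Nearest to Pcdh9 probe ILMN_1243310 were Dnajc6 (r = 0.986), a clathrin uncoating factor, Mterf4 (0.984), a mitochondrial ribosome factor, and Mettl26 (0.980). Nearest to Pcdh20 probe ILMN_1237302 were Mettl26 (0.993), Rps6kl1 (0.993) and Cyhr1 (0.992). An r above 0.9 was reached by 84 genes for the Pcdh9 probe and by 90 for the Pcdh20 probe. The log2 differences of these genes were smaller than those of the protocadherins, from 0.14 (SE 0.12) for Mettl26 to 0.42 (SE 0.12) for Cyhr1. Over 6 arrays, r is high for any gene whose genotypes are split with little spread, whatever the size of its difference. Both leading probes were split by genotype, and the wild-type values of the Pcdh9 probe lay mostly at background. Nothing is therefore read from these ranks about shared regulation.

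The wider cadherin system was measured through 6 lists with 72 genes above background, each gene by its brightest probe: 33 had higher and 39 lower values, and none of the 72 passed limma's adjusted threshold. Unadjusted p was under 0.05 for 4 of them (5.31% of all tested probes). Cdh15, or M-cadherin, which in mouse cerebellum is found at granule cell synapses, had the largest difference: it averaged 9.35 ± 0.37 in the hypomorph and 10.43 ± 0.47 in wild type (SD, n = 3 each), a log2 difference of -1.07 (SE 0.28, unadjusted p = 0.00614, adjusted p = 0.624 in limma). Cdh15 readings were 9.75, 9.02 and 9.30 in hypomorphs 1 to 3, against 10.15, 10.97 and 10.15 in wild types 1 to 3, so that the groups did not overlap. The classical and type II cadherins as a list had 5 higher and 10 lower values of 15, with a median of -0.10. Beside Cdh15, Cdh22 differed by -0.25 (SE 0.16) and Cdh7 by 0.24 (SE 0.16).

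Of the other non-clustered protocadherins and related genes, 2 of 8 were measured, Cdhr3 with a log2 difference of 0.74 (SE 0.21, limma adjusted p = 0.733) and the endothelial Pcdh12 with -0.50 (SE 0.26, adjusted p = 0.985). The clustered protocadherins, a list added after the data had been seen, had 26 measured genes between -0.19 and 0.50, with 14 higher, 12 lower and a median of 0.04. The largest of these, named after its value was seen, was Pcdhb8 at 0.50 (SE 0.19, limma adjusted p = 0.9). Fat, Dachsous, flamingo and calsyntenin cadherins had 4 of 7 higher with a median of 0.04, and the 3 with the smallest p, Dchs1 (-0.23, SE 0.16), Fat2 (0.25, SE 0.21) and Celsr2 (0.15, SE 0.18), did not pass.

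Inside the cell, catenins link classical cadherins to actin, and 1 of 6 was higher, with a median of -0.07. Ctnna2, the neuronal alpha-catenin, differed by -0.25 (SE 0.17), Ctnnd1 by -0.16 (SE 0.12) and Ctnna1 by -0.08 (SE 0.14). The cytoplasmic partners known for delta protocadherins, such as WAVE complex subunits and protein phosphatase 1, split evenly, with 8 of 16 higher and a median of -0.02. Wasf3, a WAVE subunit, was at 0.52 (SE 0.19, limma adjusted p = 0.877), Ppp1cb, a catalytic subunit of protein phosphatase 1, at 0.27 (SE 0.14), and Dab1 at -0.33 (SE 0.24).

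**Figure D5:**
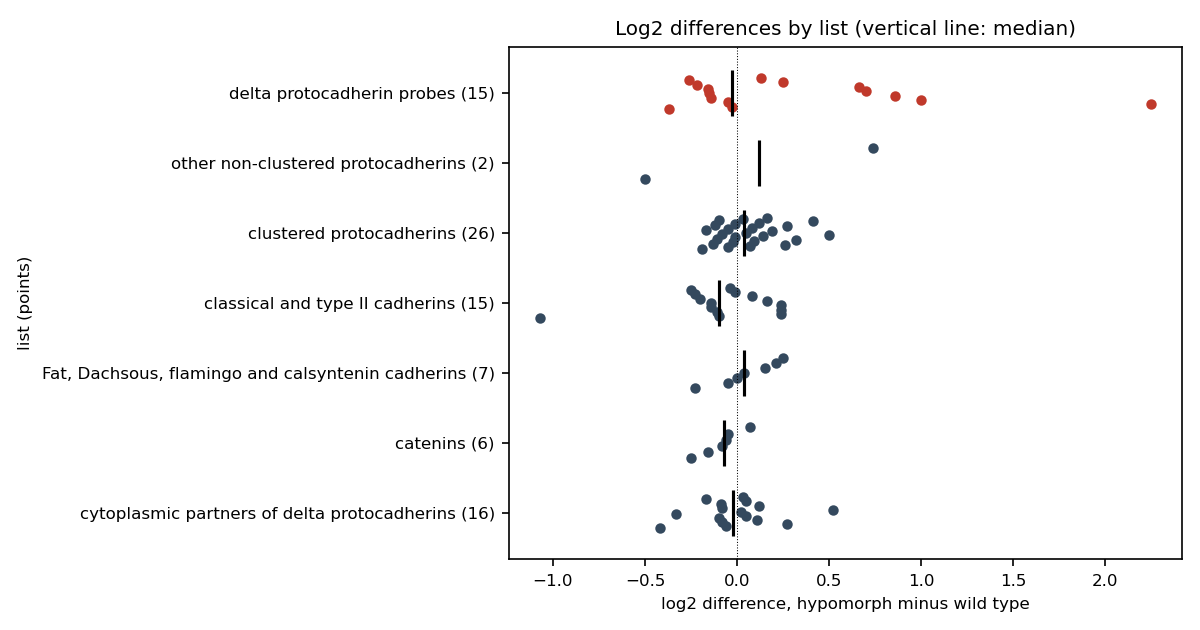
Log2 difference (x axis, hypomorph minus wild type) of the 15 delta protocadherin probes (red) and of the measured genes of 6 related lists (dark, brightest probe per gene), with the number of points in brackets and the median as a line. All medians lie between -0.10 and 0.12, and the 3 points furthest right are those of Pcdh9 and Pcdh20. The members enter with every probe, unlike the lists. By the brightest probe alone, Pcdh9 would lie at -0.05 and Pcdh20 at 1.00, beside Cdhr3 of the lists at 0.74. The point furthest right, Pcdh9 probe ILMN_1243310, is set against a wild-type mean mostly at background.

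The make-up of the tissue was followed with 12 lists of cell type and region markers, and the mean level of each list overlapped between the genotypes. Myelin genes were lower in the hypomorph for 12 of 12 measured members, with a median of -0.24 (-0.12 without wild type 1 and -0.45 without wild type 2, each with 1 of the 12 higher) and mean levels of 11.63 to 12.04 in the hypomorphs and 11.71 to 12.27 in wild type. Oligodendrocyte precursor markers were lower for 7 of 9 (median -0.16, mean levels 9.83 to 9.90 in the hypomorphs and 9.73 to 10.22 in wild type). Granule cell markers were higher for 8 of 13 (median 0.11, turned to -0.08 without wild type 1 and to -0.02 without hypomorph 3) and Purkinje cell markers for 4 of 10 (median -0.14, and 0.00 with 5 of 10 higher without hypomorph 2). Medians of the remaining lists lay between -0.16 and 0.12, and no marker gene passed limma's adjusted threshold. Most of these lists also had more lower than higher values. Lower were 11 of 13 Bergmann glia and astrocyte, 8 of 10 interneuron and Golgi cell, and 9 of 13 endothelial and mural markers. So were 6 of 8 meningeal, 2 of 3 choroid plexus and ependymal, and 4 of 5 neighbouring region markers. Single arrays turned some of these counts. Without wild type 1, 7 of 13 Bergmann glia and astrocyte, 7 of 10 interneuron and Golgi cell and 6 of 8 meningeal markers were higher. Without hypomorph 2, the higher ones were 8 of 13, 4 of 10 and 6 of 8 in the same order, and without wild type 2 they were 1, 2 and 0. The endothelial and mural median stayed between -0.19 and -0.02. Microglia had 4 of 11 lower, and unipolar brush cells and nuclear neurons 2 of 5. The part of these shifts in the protocadherin values was not tested.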

How the data were processed

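Labelled RNA of 6 cerebella was read on Illumina bead arrays. The authors deposited non-normalized intensity values, already background-subtracted (down to -42.8), with a detection p-value per probe and array, and a second table of processed intensity values on a linear scale. Ranks within each array were equal in both (rank correlation 1), and processed medians lay between 161.3 and 161.5, so the second appears quantile-normalized and raised by a constant, which no header states. The submitters' processing notes name BeadStudio; the version and genome build are not given here. All columns matched a sample label.

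Values were background-corrected from the detection p-values, quantile-normalized and set to log2 with an offset of 16 (neqc, limma 3.58.1, R 4.3.3). The offset shrinks folds of dim probes, and a shift of most transcripts would not be seen. Probes above background (detection p under 0.05) on at least 3 of 6 arrays were fitted by genotype alone (lmFit and eBayes, hypomorph over wild type on the log2 scale), with Benjamini-Hochberg adjustment over all. SE are those of the fit. The test was checked on simulated data. Each array had 41.2% to 44.5% of its probes above background; depth has no other measure on these arrays. Genes were named by GEO's platform annotation (34885 probes with 1 symbol, 18 with several, 10378 with none).

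The members and lists were chosen with earlier results of these data known. Named beyond the members were Sp4, the 3 genes with the smallest p in each related list other than the clustered protocadherins, the first 3 granule and Purkinje cell markers where tested, and the 3 most alike named genes; exceptions are marked. The settings varied were the block (replicate number added), the background (uncorrected), the scaling (median only), the offset (50), the input (the authors' values), the filter (none, or all 6 arrays), the moderation (trended and robust), weights per array, probe averaging in lists, and each array left out.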

Additional observations from a re-analysis of the deposited data

How the results depend on the processing

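The count of 0 probes past the adjusted threshold became 2 with the replicate block, 5 without background correction, 5 with an offset of 50, 8 with the authors' processed values, 3 with detection on all 6 arrays, 8 with a variance trend and 13 with array weights, and 0 to 2 with an array left out (1 without hypomorph 2, 2 without wild type 3). It stayed at 0 with median scaling and with no filter. Among these calls Pcdh20 probe ILMN_1237302 was 1 of the 8 with the authors' values (0.041% of tested probes) and Pcdh9 probe ILMN_1243310 was 1 of the 8 with the variance trend. No member was called under the other settings.

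The median of the delta protocadherin probes, -0.03, stayed at -0.03 with the replicate block, which left every difference as it was, and ran from -0.07 (without hypomorph 3) to 0.18 (without hypomorph 2) with an array left out. Without a filter, 13 of 23 probes were higher, the 8 added ones being near background. Deviations from the group means of samples with the same number correlated at 0.44, 0.40 and 0.06, and each sample correlated best with its own number. The labels do not say that a shared number marks a littermate pair, so the block was kept as an alternative. With the block, 1817 probes had an unadjusted p under 0.05 in limma, against 1036 without it. The SE of Pcdh10 probe ILMN_2727239 went from 0.21 to 0.12, and that of Pcdh9 probe ILMN_1243310 from 0.27 to 0.28. Alternatives were not run for the clustered protocadherins. Medians of the other related and marker lists kept within the replicate spread under the alternatives run, except catenins (-0.17 at the lowest) and choroid plexus genes (0.49 at the highest). Several changed sign within that spread, such as meninges (-0.38 to 0.15), unipolar brush cells and nuclear neurons (-0.16 to 0.24), granule cells (-0.08 to 0.16) and Bergmann glia (-0.23 to 0.03). Others stayed below 0, such as myelin genes (-0.45 to -0.12) and oligodendrocyte precursors (-0.24 to -0.07). Signal near background in either group limits what can be said of Pcdh8, Pcdh18, Pcdh19, most Pcdh7 probes, Pcdh9 probe ILMN_1243310 and Pcdh10 probe ILMN_2663752.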
